A study of Mus musculus with 12 samples.

Results

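The myeloid C-type lectin receptors are described here across the 2 subsets of mouse monocytes. They are 9 genes of 23996 gene rows in each deposited table, chosen by symbol: Clec4n, Clec4d, Clec4e, Clec7a, Clec5a, Clec4a2, Clec12a, Clec4a1 and Clec4a3. All 9 had a row of their own in both tables and all 9 were tested by the authors in both. The RNA came from C57Bl/6 mice with no other allele named: 3 samples of Ly6Chigh (inflammatory) and 3 of Ly6Clow (patrolling) monocytes from mice given placebo, titled Naive, and as many of each subset from mice given muramyl dipeptide (MDP), a bacterial cell wall fragment sensed by the receptor NOD2, titled 16 h. The placebo titles carry no time; mice lacking NR4A1 or NOD2, which the study's design also names, are not analysed here. Each table holds 1 FPKM value (a level scaled for transcript length and library size) for each of 2 conditions named q1 and q2, and none per sample, so no SD can be given. No source used here ties q1 or q2 to a treatment or says that both tables keep the same order, so differences are given as q2 over q1. Ly6c2, which encodes the sorting antigen, had levels of 1312 and 1054 FPKM in Ly6Chigh and of 5.78 and 3.98 FPKM in Ly6Clow monocytes, the order the subset labels give. A gene is called when the authors' q-value is under 0.05.

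C-type lectin receptors of myeloid cells bind sugars and lipids of fungi and mycobacteria, or signals of dead cells. The activating ones raise a signal through an immunoreceptor tyrosine-based activation motif (ITAM), either on a partner adaptor (the Fc receptor gamma chain encoded by Fcer1g, or DAP12 encoded by Tyrobp) or, in Dectin-1, through a single copy of it in the receptor's own tail; the kinase Syk and the adaptor Card9 carry the signal on. The inhibitory ones hold an immunoreceptor tyrosine-based inhibition motif (ITIM), which recruits phosphatases such as SHP-1 and SHIP-1.

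The first 60 coding bases, which encode the start of the cytoplasmic tail, are shown because the classes differ there. They were read from the longest open reading frame of the protein-coding transcripts of GENCODE M21 (GRCm38, chromosome 6). Capitals mark the codons of an ITIM pattern (isoleucine, valine, leucine or serine, any residue, tyrosine, any 2 residues, then leucine, valine or isoleucine) in the 2 inhibitory lectins, those of the single ITAM-like pattern of Clec7a (tyrosine, any 2 residues, then leucine or isoleucine), and a tyrosine codon with no such pattern around it in Clec4a1 and Clec4a3.
Clec4a2: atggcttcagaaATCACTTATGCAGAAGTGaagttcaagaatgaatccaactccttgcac
Clec12a: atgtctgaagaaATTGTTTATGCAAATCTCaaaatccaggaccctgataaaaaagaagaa
Clec4a1: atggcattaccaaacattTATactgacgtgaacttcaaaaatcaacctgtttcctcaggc
Clec4a3: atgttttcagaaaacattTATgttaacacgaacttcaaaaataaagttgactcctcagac
Clec7a: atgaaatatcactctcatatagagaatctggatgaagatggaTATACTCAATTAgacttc
Clec4n: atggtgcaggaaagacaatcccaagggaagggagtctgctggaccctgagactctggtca
Within the first 40 codons the ITIM pattern was found in Clec4a2 and Clec12a and in none of the other 7 lectins. Clec4a1 and Clec4a3, which encode DCIR4 and DCIR3, have their tyrosine at position 7, as Clec4a2 and Clec12a do, but not the whole pattern: both have asparagine in place of its first residue, and Clec4a3 lacks its last residue too. They are therefore kept apart from both classes here. Clec4n, Clec4d and Clec4e have no tyrosine codon in that window and signal through the Fc receptor gamma chain.

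The lectins differed widely in level. Clec4a3 and Clec4a1 were the 2 highest of the 9 in every condition of both tables, with Clec4a3 at 334 and 264 FPKM in q1 and q2 of Ly6Chigh monocytes and at 468 and 393 in those of Ly6Clow monocytes. Clec12a and Clec7a followed in Ly6Chigh monocytes, at 94.2 to 212 FPKM. At the other end, Clec5a was at 8.15 and 7.95 FPKM in Ly6Chigh and at 0.127 and 0.319 in Ly6Clow monocytes, the lowest of the 9 there. Since no value per sample exists, neighbours in this order cannot be set apart beyond a replicate spread.

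**Figure D1:**
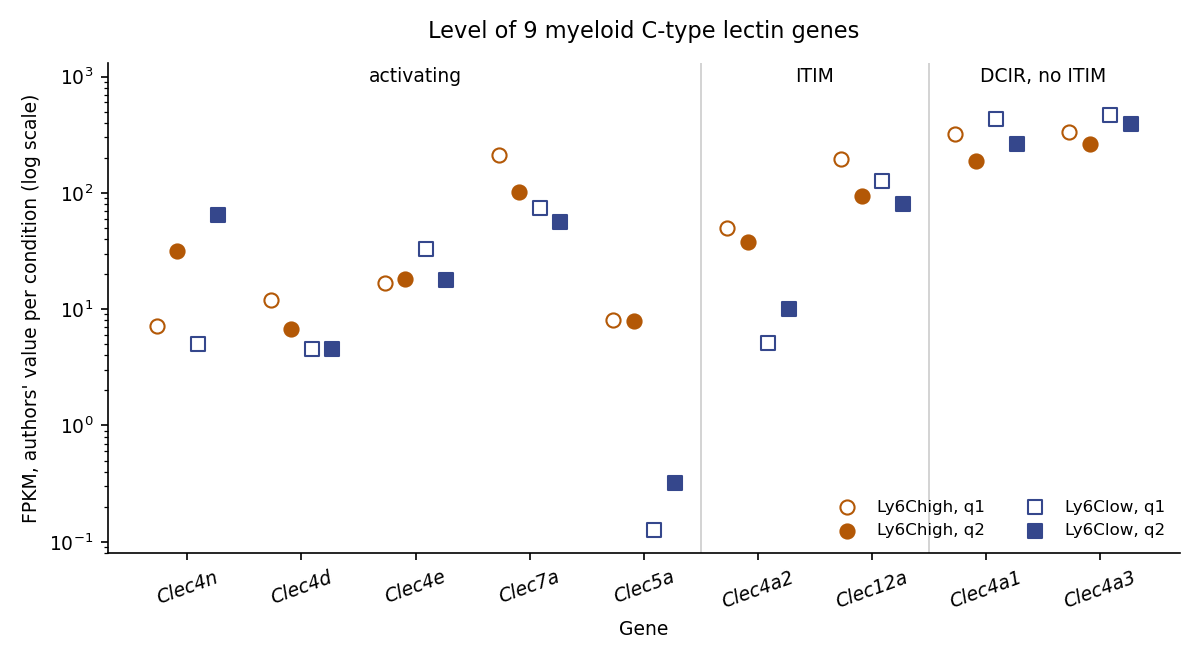
FPKM of each of the 9 lectin genes on a log axis, 1 authors' value per condition (open: q1, filled: q2; circles: Ly6Chigh, squares: Ly6Clow), with no error since none is given per sample. Clec4n goes from 7.11 FPKM in q1 to 31.9 in q2 in Ly6Chigh and reaches 64.9 in q2 of Ly6Clow monocytes, while Clec4a1, Clec7a and Clec12a are lower in q2 in both subsets.

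Clec4n, which encodes Dectin-2, a receptor for fungal mannans, was higher in q2 in both subsets. In Ly6Chigh monocytes its level was 7.11 FPKM in q1 against 31.9 in q2, 4.48-fold higher (q = 0.000859 in the authors' deposited table). In Ly6Clow monocytes it was at 4.999 and 64.9 FPKM, 12.98-fold higher (q = 0.000418 in the authors' deposited table). These are the smallest q-values either table holds, shared by 677 tested genes in the Ly6Chigh and 1440 in the Ly6Clow table. By size of the ratio, Clec4n was rank 93 among 10487 tested genes that reached 1 FPKM in a condition and had a finite ratio in the Ly6Chigh table, and rank 15 among 10591 in the Ly6Clow table. It moved from the lowest level of the 9 lectins in q1 to rank 6 in q2 in Ly6Chigh monocytes, and from rank 7 to rank 4 in Ly6Clow monocytes. The log2 ratio was larger by 1.53 in the Ly6Clow table, a difference that was not tested.

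The neighbouring genes Clec4d and Clec4e, whose products share the adaptor of Dectin-2, were not called higher in either table. Clec4e encodes Mincle, which binds the mycobacterial glycolipid trehalose dimycolate. In Ly6Chigh monocytes its FPKM values were 16.7 and 18.0 (the authors' deposited table gives q = 0.823). It was called lower in Ly6Clow monocytes, at 33.1 and 18.0 FPKM, 1.84-fold (q = 0.000418 in the authors' deposited table). Clec4d encodes MCL, which pairs with Mincle. It was called lower in Ly6Chigh monocytes, at 11.96 and 6.70 FPKM, 1.78-fold (q = 0.0195 in the authors' deposited table), a call that was lost at q under 0.01. In Ly6Clow monocytes the FPKM of Clec4d was 4.57 and 4.56 (the authors' deposited table gives q = 0.991). So, of these 3 receptors that couple to the Fc receptor gamma chain, 1 was called higher and 1 lower in each table, and the lower one was a different gene in each.

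Clec7a, which encodes the beta-glucan receptor Dectin-1, was called lower in q2 in both subsets. It was at 212 and 103 FPKM in Ly6Chigh monocytes, 2.07-fold lower (q = 0.000859 in the authors' deposited table). In Ly6Clow monocytes it was at 74.3 and 56.4 FPKM, 1.32-fold lower (q = 0.00181 in the authors' deposited table). Clec5a encodes MDL-1, which signals through DAP12. Its values in Ly6Chigh monocytes have q = 0.955, and it was called higher in Ly6Clow monocytes, 2.52-fold (q = 0.0117; 0.0022 unadjusted), both in the authors' deposited table. Both Ly6Clow values of Clec5a are under 1 FPKM, and the call was lost at q under 0.01. Its log2 ratio there was 1.34 with no pseudocount, 0.89 with one of 0.1 FPKM and 0.23 with one of 1 FPKM. The locus given for Clec5a, 40529091 to 40910666 on chromosome 6 (mm10), holds 7 other gene rows, none of them above 0.046 FPKM in any condition.

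Of the 2 ITIM lectins, Clec12a was lower in q2 in both subsets and Clec4a2 was called in 1. Clec12a encodes MICL, which binds uric acid crystals. It was at 195 and 94.2 FPKM in Ly6Chigh monocytes, 2.07-fold lower (q = 0.000859 in the authors' deposited table), and at 126 and 80.2 in Ly6Clow monocytes, 1.58-fold lower (q = 0.000418 in the authors' deposited table). Clec4a2 encodes the ITIM-bearing receptor DCIR1. It was at 49.6 and 38.0 FPKM in Ly6Chigh monocytes (q = 0.19 and an unadjusted p of 0.047 in the authors' deposited table). In Ly6Clow monocytes it was at 5.15 and 9.95 FPKM, 1.93-fold higher (q = 0.000418 in the authors' deposited table).

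Of the DCIR paralogs with no ITIM, Clec4a1 was called lower in both subsets and Clec4a3 in neither. Clec4a1 was at 320 and 189 FPKM in Ly6Chigh monocytes, 1.69-fold lower (q = 0.0029 in the authors' deposited table), and at 430 and 263 in Ly6Clow monocytes, 1.63-fold lower (q = 0.000418 in the authors' deposited table). The 2 log2 ratios of Clec4a1, -0.76 and -0.71, are the closest pair of the 9 lectins, 0.052 apart. Clec4a3 was not called in either table (q = 0.256 in Ly6Chigh and 0.0889 in Ly6Clow in the authors' deposited table), with log2 ratios of -0.34 and -0.25. The Clec4a genes are close paralogs, and reads shared between them could be assigned to the wrong copy, so their values are uncertain to that extent.

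In all, 5 of the 9 lectins were called in Ly6Chigh monocytes, 1 higher and 4 lower in q2, beside 14.6% of the 11626 genes tested (7.07% called higher, 7.54% called lower). In Ly6Clow monocytes 7 were called, 3 higher and 4 lower, beside 26.3% of the 12042 genes tested (14.2% called higher, 12.2% called lower). Clec4n was the 1 lectin called higher in both tables, and Clec7a, Clec12a and Clec4a1 were called lower in both. The share of all tested genes called in the same direction in both tables was not computed. Whether this overlap exceeds that of other genes is therefore not known. These patterns are of q2 over q1, and whether q2 is the same treatment in both tables is not known. The median log2 ratio of the 9 was -0.38 in Ly6Chigh and -0.25 in Ly6Clow monocytes, against 0.0045 and -0.0044 over all tested genes.

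**Figure D2:**
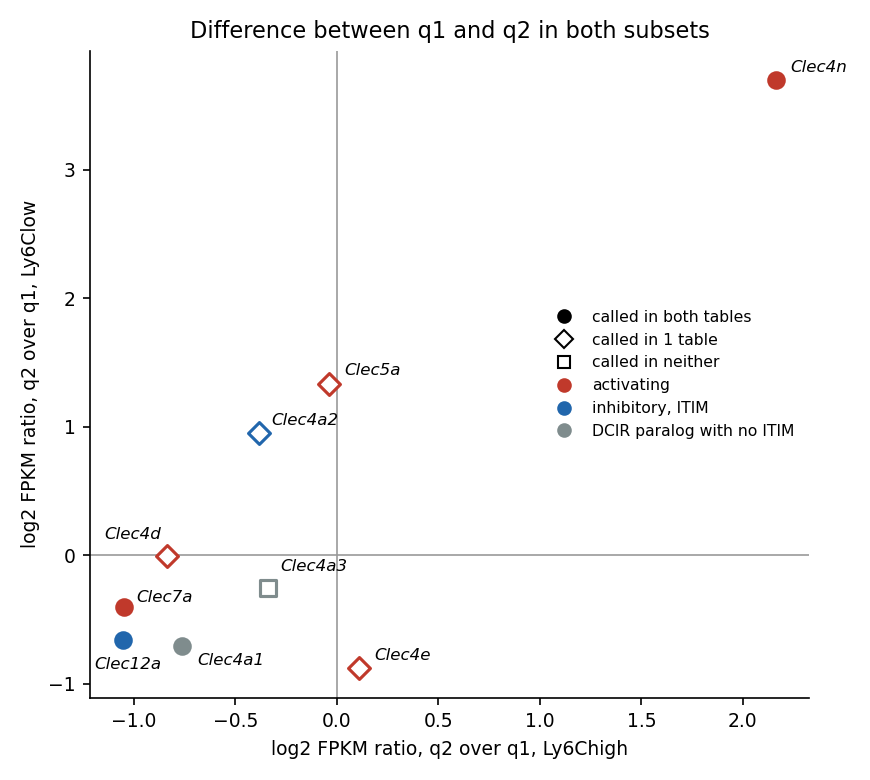
Each point is a lectin, with its log2 FPKM ratio of q2 over q1 in Ly6Chigh (x axis) and Ly6Clow monocytes (y axis), coloured by class, filled where called in both tables, an open diamond where called in 1 and an open square where called in neither. Clec4n stands alone at 2.16 and 3.70, and Clec7a, Clec12a and Clec4a1 lie together in the lower left.

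Over both tables together, the activating and the ITIM class each held lectins called higher and lectins called lower. In Ly6Chigh monocytes no ITIM lectin was called higher. The class counts stand beside 14.6% of tested genes called in Ly6Chigh monocytes (7.07% higher, 7.54% lower). In Ly6Clow monocytes that share was 26.3% (14.2% higher, 12.2% lower). The 5 activating lectins were 1 called higher, 2 lower and 2 not called in Ly6Chigh monocytes, with a median log2 ratio of -0.036, and 2 higher, 2 lower and 1 not called in Ly6Clow monocytes, with a median of -0.0038. Of the 2 ITIM lectins, 1 was lower and 1 not called in Ly6Chigh monocytes (median -0.72), and 1 was higher and 1 lower in Ly6Clow monocytes (median 0.15). The activating median was above the ITIM median by 0.68 in Ly6Chigh monocytes and differed from it by -0.15 in Ly6Clow monocytes. With 2 ITIM members and no value per sample, this difference was not tested.

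Within the activating class the share of Clec7a was smaller and that of Clec4n larger in q2 in both subsets. The 5 activating lectins summed to 256 FPKM in q1 and 167 in q2 of Ly6Chigh monocytes, and the 2 ITIM lectins to 245 and 132, a ratio of 1.04 in q1 and 1.26 in q2. In Ly6Clow monocytes the activating sums were 117 and 144 FPKM and the ITIM sums 131 and 90.1, a ratio of 0.891 in q1 and 1.599 in q2. Clec7a held 82.9% of the activating sum in q1 and 61.4% in q2 in Ly6Chigh monocytes, and 63.5% and 39.1% in Ly6Clow monocytes. The share of Clec4n went from 2.78% to 19.1% in Ly6Chigh and from 4.27% to 45.03% in Ly6Clow monocytes. In Ly6Clow monocytes the activating sum was higher in q2 only with Clec4n counted, at 4.999 and 64.9 FPKM. The activating median log2 ratio less the ITIM median was -0.15 there, so the summed levels and the medians differ in direction. These sums are descriptions with no error.

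**Figure D3:**
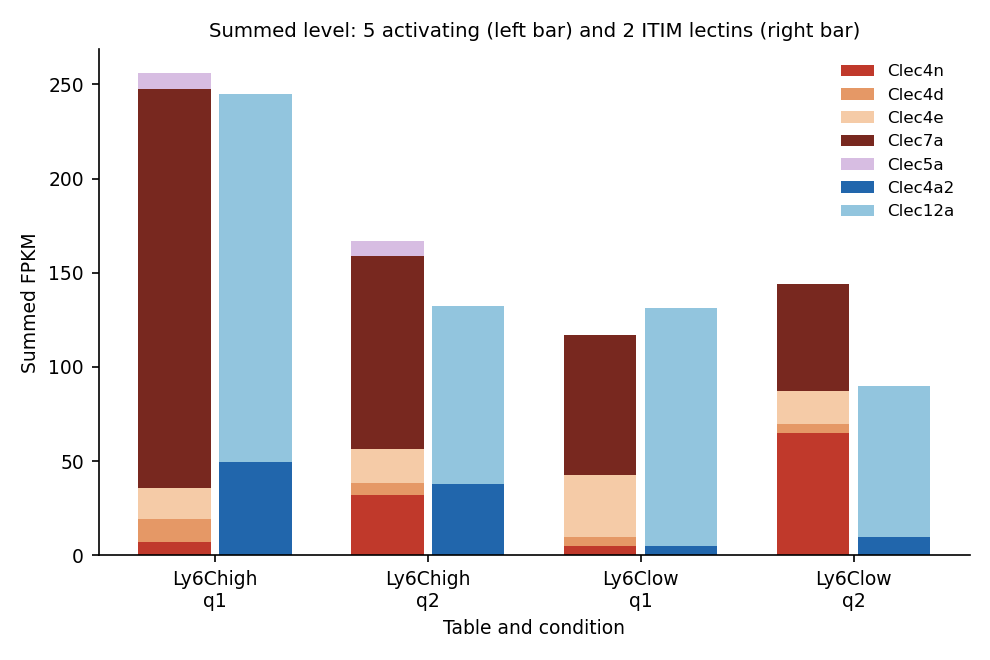
Summed FPKM of the 5 activating lectins (left bar of each pair) and the 2 ITIM lectins (right bar) in each table and condition, stacked by gene, on a linear axis from 0. Clec7a makes up most of the activating bar in q1 of both subsets, and Clec4n is 45.03% of it in q2 of Ly6Clow monocytes.

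Other receptors of the same 2 signalling classes were set beside the lectins. Of 15 further ITAM-coupled receptor genes, 12 were tested in each table, of which 3 were called higher and 7 lower in Ly6Chigh monocytes (median log2 ratio -0.70) and 1 higher and 6 lower in Ly6Clow monocytes (median -0.27). Among all tested genes 14.6% were called in the Ly6Chigh and 26.3% in the Ly6Clow table. Clec4b1, which encodes the activating DCIR relative DCAR, was 5.83-fold lower in Ly6Chigh (14.4 and 2.47 FPKM; q = 0.000859) and 1.71-fold lower in Ly6Clow monocytes (26.9 and 15.7 FPKM; q = 0.000418), by the authors' deposited table. Trem2, a DAP12-coupled lipid receptor gene, was 2.13-fold lower in Ly6Chigh monocytes and Trem1, an amplifier of inflammation, 3.06-fold higher, each with q = 0.000859 in the authors' deposited table. In Ly6Clow monocytes Trem2 was 7.10-fold lower, at 12.7 and 1.78 FPKM (q = 0.000418), and Trem1 was at 36.8 and 33.7 FPKM (q = 0.44), as the authors' deposited table gives them.

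Of 15 further ITIM receptor genes, 14 were tested in each table, of which 3 were called higher and 2 lower in Ly6Chigh monocytes (median log2 ratio 0.10) and 7 higher and 1 lower in Ly6Clow monocytes (median 0.32). The shares called over all tested genes were 14.6% in Ly6Chigh and 26.3% in Ly6Clow monocytes. Cd300lf was 3.62-fold higher in Ly6Chigh monocytes (30.6 and 111 FPKM; q = 0.000859) and 5.82-fold higher in Ly6Clow monocytes (24.4 and 142 FPKM; q = 0.000418), by the authors' deposited table. Siglece, a sialic acid-binding inhibitory receptor gene, was at 14.9 and 121 FPKM in Ly6Clow monocytes, 8.15-fold higher (q = 0.000418), while its Ly6Chigh values were 24.99 and 26.7 FPKM (q = 0.847), by the authors' deposited table. Cd33, another sialic acid-binding receptor gene, was 5.33-fold higher in Ly6Clow monocytes, from 1.75 to 9.34 FPKM (the authors' deposited table gives q = 0.000418). Clec4a4, which encodes the ITIM-bearing DCIR2, was called lower in both tables, 3.03-fold in Ly6Chigh and 1.97-fold in Ly6Clow monocytes (q = 0.0108 and 0.000418 in the authors' deposited table). Whether the wider ITAM-coupled and ITIM lists differ from each other was not tested.

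**Figure D4:**
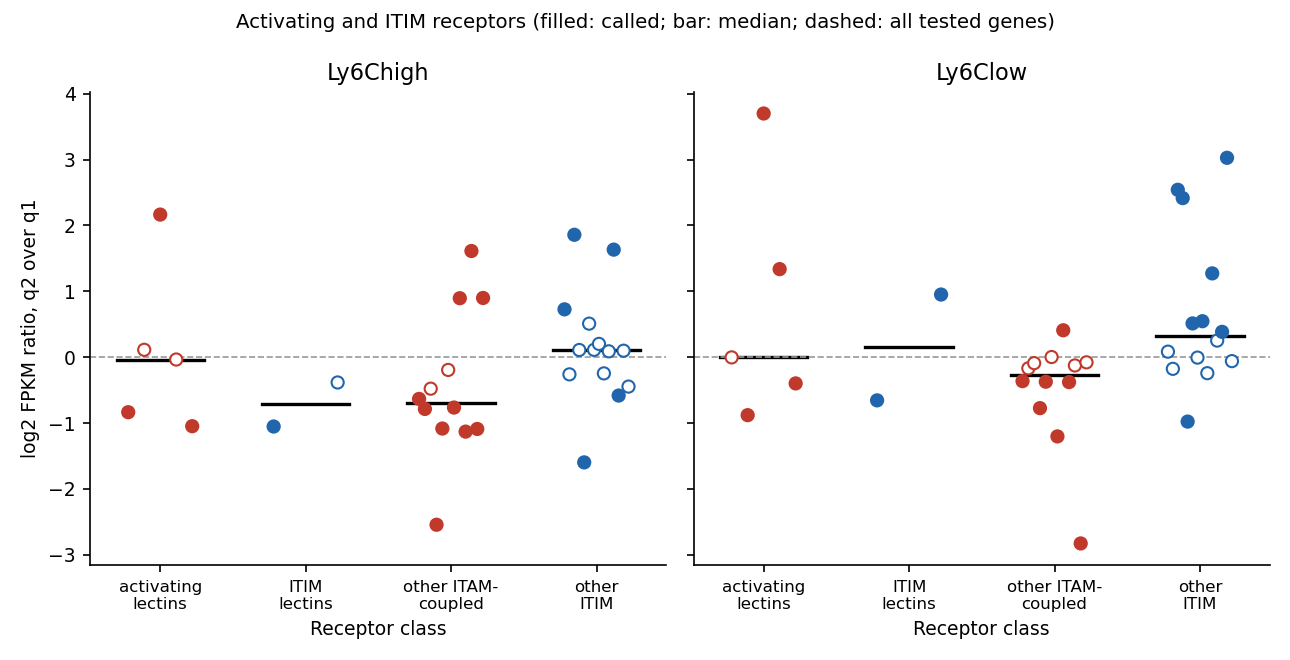
The log2 FPKM ratio of q2 over q1 for each tested gene of 4 receptor lists in Ly6Chigh (left) and Ly6Clow monocytes (right), filled where called, with a bar at the list's median and a dashed line at the median of all tested genes. The medians of the further ITAM-coupled genes are -0.70 and -0.27, and those of the further ITIM genes 0.10 and 0.32.

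The adaptor genes Fcer1g and Tyrobp were at 1801 to 4282 FPKM and were not called in either table (q = 0.386 and 0.433 in Ly6Chigh, 0.672 and 0.91 in Ly6Clow monocytes in the authors' deposited table). Hcst, which encodes DAP10, an adaptor that binds PI3-kinase and also partners with the Clec5a product, was called lower in both, 1.95-fold (53.2 and 27.3 FPKM; q = 0.00756) and 1.61-fold (74.1 and 46.1 FPKM; q = 0.000418), by the authors' deposited table. Of 14 genes downstream of ITAM receptors, 1 was called, lower, in Ly6Chigh monocytes, and 3 were called in Ly6Clow monocytes, 1 higher and 2 lower, out of 14 tested in each, beside the 14.6% and 26.3% called among all tested genes. Vav1, a guanine nucleotide exchange factor gene, was called lower in both, 1.49-fold and 1.22-fold (q = 0.0195 and 0.0324 in the authors' deposited table). Prkcd, whose product links Syk to Card9, was 1.44-fold higher in Ly6Clow monocytes (q = 0.00211 in the authors' deposited table). Syk was at 156 and 114 FPKM in Ly6Chigh (q = 0.105) and 133 and 159 in Ly6Clow monocytes (q = 0.104), by the authors' deposited table. Card9 was at 148 and 166 FPKM (q = 0.675) and at 144 and 136 (q = 0.639), by the authors' deposited table. Of the phosphatase genes Ptpn6, Ptpn11 and Inpp5d, 0 were called in either table by the authors' Cuffdiff test, the only tool run, and 0 had an unadjusted p under 0.05, the smallest being 0.278 in Ly6Chigh and 0.219 in Ly6Clow monocytes.

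Of 15 genes that these receptors are known to induce, 11 were under 1 FPKM in both conditions in Ly6Chigh and 10 in Ly6Clow monocytes. Of the 15, 7 were tested in Ly6Chigh monocytes (1 called higher, 1 lower) and 6 in Ly6Clow monocytes (1 higher, 2 lower), beside 14.6% and 26.3% called among all tested genes. Il1b, the interleukin 1 beta gene, was lower in both, 4.10-fold and 1.83-fold, and Egr2, an early response transcription factor gene, was 5.10-fold higher in Ly6Clow monocytes at 1.59 and 8.10 FPKM, by the authors' deposited table. Il6 was the gene called higher in Ly6Chigh monocytes, listed at 0 in q1 and at 0.394 FPKM in q2, and Cxcl2, a neutrophil chemokine gene, was 3.09-fold lower in Ly6Clow monocytes, by the authors' deposited table. Il12b was listed at 0 in both conditions of both tables.

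Among 36 other C-type lectin genes, 24 were tested in Ly6Chigh monocytes, of which 12 were called lower and 0 higher, and 28 in Ly6Clow monocytes, of which 8 were called higher and 9 lower. Their median log2 ratio was -0.90 in Ly6Chigh and 0.028 in Ly6Clow monocytes. The shares called over all tested genes were 14.6% in the Ly6Chigh and 26.3% in the Ly6Clow table. Clec1b, Clec4b1, Clec4b2, Clec4a4 and Clec12b are also in the further ITAM-coupled or ITIM lists. The lower calls of Clec4b1 and Clec4a4 are thus counted in both places and are not separate observations. Cd209d and Cd209a, of the DC-SIGN family, were 21.5-fold lower (5.56 and 0.259 FPKM; q = 0.0334) and 19.6-fold lower (62.1 and 3.17 FPKM; q = 0.000859) in Ly6Chigh monocytes and 1.96-fold and 1.51-fold higher in Ly6Clow monocytes (q = 0.000418 for both), by the authors' deposited table; they are close paralogs that could share reads. Clec9a, a receptor gene of cross-presenting dendritic cells, was 20.5-fold lower in Ly6Chigh monocytes from 2.87 to 0.14 FPKM (q = 0.000859), and Mgl2, a galactose-type lectin gene, was 2.92-fold higher in Ly6Clow monocytes from 38.3 to 112 FPKM (q = 0.000418), by the authors' deposited table. Clec2i was lower in both, 1.86-fold and 2.35-fold, in the authors' deposited table. Cd209a and Clec9a are also among the dendritic cell markers, whose summed level was 95.3 FPKM in q1 and 9.46 in q2 of Ly6Chigh monocytes. Those sums include Cd209a itself, at 62.1 and 3.17 FPKM. Of the other markers, Flt3 and Dpp4 were also called lower there, and Zbtb46, Xcr1 and Ccr7 were not called. The part of such cells in these differences was not tested.

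Except for Clec5a, the lectins lie in 2 clusters of chromosome 6 (mm10). The Dectin-2 cluster, 122921848 to 123289871, holds 9 gene rows, of which 6 are lectins described here, in the order Clec4a1, Clec4a3, Clec4a4, Clec4b1, Clec4a2, Clec4b2, Clec4n, Clec4d, Clec4e. In Ly6Chigh monocytes Clec4n was the only 1 of these 9 called higher, with 4 called lower; in Ly6Clow monocytes 2 were called higher, Clec4n and Clec4a2, and 4 lower. The genes on either side of Clec4n were not called higher: Clec4b2 was at 0 to 0.029 FPKM and not tested, and Clec4d was lower or not called. The Dectin-1 cluster from Clec12a to Clec7a, 129350244 to 129472777, holds 6 rows, of which Clec12a, Clec9a and Clec7a were called lower and none higher in each table. Over all tested genes 14.6% were called in the Ly6Chigh and 26.3% in the Ly6Clow table.

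**Figure D5:**
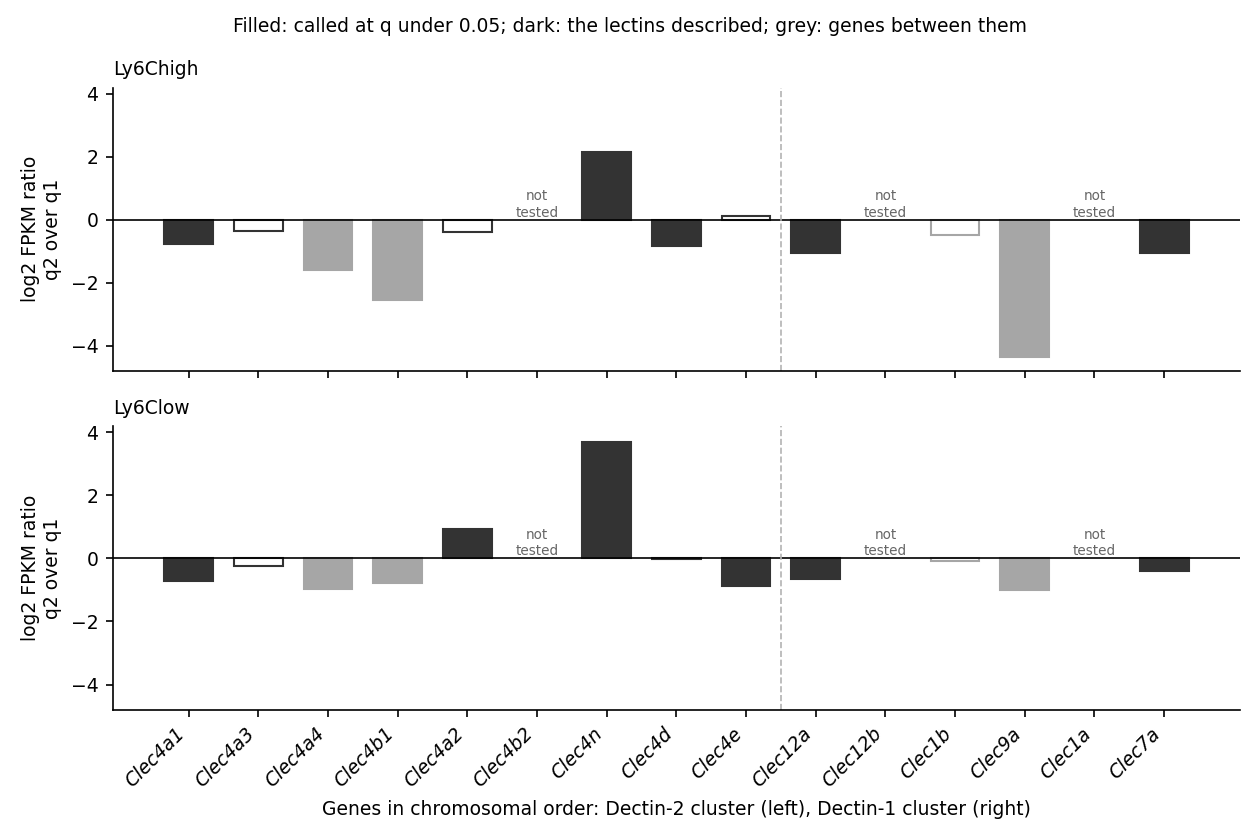
The log2 FPKM ratio of q2 over q1 for the genes of the 2 clusters in chromosomal order (equal spacing, not to distance), in Ly6Chigh (top) and Ly6Clow monocytes (bottom); filled bars were called, dark bars are the lectins described and grey bars the genes between them. The bars of Clec4n, 2.16 and 3.70, stand between Clec4b2, not tested, and Clec4d, lower or not called.

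The promoters of the 3 lectins called lower in both tables are shown because these genes share the direction of q2 over q1. Whether q2 is the same treatment in both tables is not known. Each is the 250 bases before the RefSeq start (GRCm38.p6), read 5′ to 3′ on the gene's strand, at chr6:129472780-129473029 (minus) for Clec7a, chr6:129349994-129350243 (plus) for Clec12a and chr6:122921598-122921847 (plus) for Clec4a1.
Clec7a: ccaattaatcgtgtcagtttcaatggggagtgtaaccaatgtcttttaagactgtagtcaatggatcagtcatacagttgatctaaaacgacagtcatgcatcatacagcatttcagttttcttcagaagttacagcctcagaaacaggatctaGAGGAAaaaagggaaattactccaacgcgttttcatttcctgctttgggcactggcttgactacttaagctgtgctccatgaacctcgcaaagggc
Clec12a: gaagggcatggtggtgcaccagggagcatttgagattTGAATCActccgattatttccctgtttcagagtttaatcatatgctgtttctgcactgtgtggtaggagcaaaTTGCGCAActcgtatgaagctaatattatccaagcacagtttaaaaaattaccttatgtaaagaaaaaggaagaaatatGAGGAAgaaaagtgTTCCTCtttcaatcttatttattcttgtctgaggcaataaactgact
Clec4a1: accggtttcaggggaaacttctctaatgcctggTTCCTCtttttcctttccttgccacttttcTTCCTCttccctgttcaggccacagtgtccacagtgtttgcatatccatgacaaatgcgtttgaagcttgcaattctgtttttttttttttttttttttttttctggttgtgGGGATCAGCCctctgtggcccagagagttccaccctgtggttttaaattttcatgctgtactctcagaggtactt
Capitals mark matches, on either strand, to GAGGAA (the core bound by PU.1, a myeloid transcription factor), TTGCNNAA (C/EBP), TGANTCA (AP-1), GGGA and CC with 4 free bases between them (NF-kB) and GAAA repeated after 2 free bases (the interferon-stimulated response element). Matches to different patterns do not overlap in these 3. The C/EBP letters of Clec12a match on both strands at the same place. GAGGAA was found in 6 of the 8 lectins with an entry (the first entry where a gene has 2), among them Clec4e, Clec4d and Clec5a, against 23.3% of 32851 promoters of the same length. That share counts every entry of a gene. In Clec4a3, counted as without GAGGAA, the other entry does hold a match. GAGGAA was therefore found in lectins called lower in both tables and in lectins that were not. Clec4n, the lectin called higher in both, has no entry and was not searched. The C/EBP letters were found in Clec12a and Clec4e (9.56% of all promoters), the AP-1 letters in Clec12a (6.75%), the NF-kB letters in Clec4a1 (17.6%) and those of the interferon element in 0 of 8 (2.98%). A match is a description of letters and not of binding.

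Levels of several lectins differed between the subsets. Clec5a and Clec4a2 were lower in Ly6Clow than in Ly6Chigh monocytes in both conditions, Clec5a by 64.4-fold in q1 and 24.9-fold in q2 and Clec4a2 by 9.64-fold and 3.82-fold. The ratios of Clec5a rest on Ly6Clow levels under 1 FPKM and move with the pseudocount: its log2 ratio over the mean of both conditions was -2.89 with a pseudocount of 1 and -4.72 with one of 0.1. Clec7a was 2.85-fold and 1.82-fold lower in the Ly6Clow table, Clec4d 2.62-fold and 1.47-fold lower and Clec12a 1.55-fold and 1.18-fold lower. Clec4a1 and Clec4a3 were 1.34-fold to 1.49-fold higher there. Clec4n was 1.42-fold lower in q1 and 2.04-fold higher in q2, and Clec4e was 1.99-fold higher in q1 and level in q2, with a ratio of 0.999. With a pseudocount of 1 FPKM, 4 of the 9 differed by at least 2-fold in q1, all lower in Ly6Clow, beside 11.1% in either direction of the 10985 genes that reached 1 FPKM somewhere. In q2 there were 3, 2 lower and 1 higher, beside 9.56% of genes, and over the mean of both conditions 3, all lower, beside 9.62%. The 2 tables need not share a normalization. Nor is q1, or q2, known to be the same treatment in both, so these ratios may set different treatments against each other. They were not tested.

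By the distance between the 4 log2(FPKM + 1) values, each gene centred on its own mean, the genes most like Clec4n among 10984 others were Cd1d1, which presents lipids to NKT cells, at 0.71, Cd300lf at 0.74 and Gfi1b, a transcription factor gene, at 0.82. Cd1d1 was at 4.67 and 35.2 FPKM in Ly6Chigh and 5.08 and 39.5 in Ly6Clow monocytes. The genes nearest to Clec7a were Ptgfrn at 0.089, Xaf1 at 0.11 and Fcgr1, the high-affinity IgG receptor gene, at 0.14. Nearest to Clec12a were Parp8, Isoc2b and Rere at 0.061 to 0.14, to Clec4a2 Met, Slc16a6 and Plcb1 at 0.27 to 0.36, and to Clec4d Igbp1, P2rx4 and Bscl2 at 0.085 to 0.12. Clec4e was nearest to Itm2a, Nyx and Fam3b at 0.12 to 0.15, all 3 under 2 FPKM, Clec5a to Mir1957b, Thbs1 and Padi4 at 0.20 to 0.25, Clec4a1 to Rnf19b, Lmo4 and Pfkfb3 at 0.079 to 0.10, and Clec4a3 to Nxf1, Zfp62 and Mfsd2b at 0.040 to 0.047. Among the lectins themselves the lowest ranks were those of Clec4a2 from Clec5a, 24, and of Clec5a from Clec4a2, 25, at a distance of 0.67. That distance rests on Clec5a levels under 1 FPKM in Ly6Clow monocytes. Several lectin pairs were closer by distance but at higher ranks, the closest being Clec4a1 and Clec4a3 at 0.44, then Clec4d and Clec7a at 0.48. The lectin nearest to Clec4n was Clec4a3, at rank 8710.

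Markers of other cells moved beside some lectins. The counts of called markers below stand beside 14.6% of all tested genes called in Ly6Chigh and 26.3% in Ly6Clow monocytes. Several of these lectins are also expressed by neutrophils and dendritic cells, and in bulk RNA fewer cells of a type and less RNA per cell cannot be told apart. Of 14 neutrophil markers, 10 were tested in Ly6Chigh monocytes, 3 called higher and 1 lower, and their summed level was 801 FPKM in q1 and 1128 in q2; in Ly6Clow monocytes 3 were called higher and 1 lower of 7 tested, with sums of 371 and 321. Fcgr3 and Csf3r, which monocytes also express, carry much of these sums. Csf3r was the 1 marker called lower in each table, at 185 and 85.1 FPKM in Ly6Chigh and 137 and 63.7 in Ly6Clow monocytes. Without Fcgr3 and Csf3r the sums were 177 and 659 FPKM in Ly6Chigh and 17.9 and 39.7 FPKM in Ly6Clow monocytes, higher in q2 in both. Leaving them out was a choice made after the values were seen, and the direction of the Ly6Clow sum depends on it. Mmp8 was at 59.0 and 41.9 FPKM in Ly6Chigh monocytes and was not called. The genes called higher were S100a8 (62.9 and 422 FPKM), Lcn2 (22.6 and 99.0) and S100a9 (28.3 and 89.0) in Ly6Chigh monocytes, and Retnlg (4.95 and 16.2), S100a9 (6.20 and 12.3) and S100a8 (5.03 and 9.59) in Ly6Clow monocytes, by the authors' deposited table. The granule protein genes Camp and Ngp were at 0 to 0.24 FPKM throughout and were not tested. Of 8 markers of dendritic cells, Ly6Chigh monocytes had 4 lower and 0 higher (sums of 95.3 and 9.46 FPKM) and 3 lower and 3 higher in Ly6Clow monocytes (170 and 231), with Siglech under 0.1 in all. Most of the Ly6Clow sums is Cd209a, at 129 and 194 FPKM, and their direction depends on it. Markers of tissue macrophages included 3 called higher and 1 lower of 4 tested in Ly6Chigh (121 and 104 FPKM) and 1 higher and 5 lower of 7 in Ly6Clow monocytes (235 and 94.4). The 1 called lower in Ly6Chigh monocytes was Emr1, at 106 and 50.5 FPKM, and the direction of the sum there depends on it. Of 7 B cell markers 0 were called in Ly6Chigh (87.0 and 66.5 FPKM) and 4 were higher in Ly6Clow monocytes (172 and 247). The summed T cell markers were at 2.35 to 4.13 FPKM and NK cell markers at 2.99 to 15.1, with 0 of 5 and 0 of 4 tested genes called in Ly6Chigh and 1 lower and 3 higher in Ly6Clow monocytes. Erythroid and platelet markers were 2 lower of 6 in Ly6Chigh (582 and 492 FPKM) and 1 higher and 1 lower of 7 in Ly6Clow monocytes (909 and 1041). Their part in the lectin differences was not tested. Of 11 monocyte genes, 1 was higher and 5 lower in Ly6Chigh and 2 higher and 4 lower in Ly6Clow monocytes, and all were expressed at 2.98 FPKM or more in both tables.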

How the data were processed

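RNA-seq of 12 samples in 4 groups of 3 was deposited as 2 Cuffdiff-style tables, 1 per monocyte subset. Trimmomatic 0.33, TopHat2 2.0.14, Bowtie2 2.2.5, Cufflinks 2.21, Cuffdiff 2.21 and the build mm10 are named, with no settings, per the submitters' processing notes. The deposited values are 1 per condition, per the file headers, which name no unit; they are read as FPKM, the unit of the Cuffdiff table format. Each p-value and q-value is deposited as well, from the authors' Cuffdiff comparison. A table's subset was taken from the word its name shares with the sample titles. The depth is unknown and no replicate could be left out. No source used here says whether samples came from separate animals, so the spread behind these p-values may be technical.

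The log2 ratio was computed from the 2 FPKM values with no pseudocount. Adjusting the deposited p-values by Benjamini-Hochberg over the tested genes returned the deposited q-values, within 1e-04, in all 11626 and 12042 rows, and was checked on simulated p-values. Table starts were moved from a count from 0 to a count from 1. The members and lists were chosen with earlier results of these data known. Named list genes are, per list and table, at most 6 called genes with the largest ratios that reached 1 FPKM in a condition, with the adaptors and phosphatases whatever their values, and for each lectin the 3 nearest genes; Syk, Card9, Il6, Il12b and the single marker genes were named after their values were seen. Lilra6, an activating receptor gene put in the ITIM list in error, was left out, Pirb and its alias were counted once, and 3 marker names matched no row. The values of 1 list gene are not reported here. Python 3.11.15, pandas 2.3.3, Biopython 1.88 and matplotlib 3.10.9 were used.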

Additional observations from a re-analysis of the deposited data

How the results depend on the processing

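The calls of the lectins held under a Benjamini-Hochberg adjustment over genes with FPKM of at least 1 (Clec5a in Ly6Clow monocytes falls outside it, leaving 2 called higher). Centring on the median of tested genes and pseudocounts of 1 and 0.1 FPKM leave the authors' q-values as they are, so they bear on the ratios alone; no direction changed, except that the log2 ratio of Clec4d in Ly6Clow monocytes, not called, went from -0.0038 to 0.00065 with centring. At q under 0.01 Clec4d was lost in Ly6Chigh and Clec5a in Ly6Clow monocytes. With a log2 ratio of at least 1 in size also required, 2 lectins were called lower in Ly6Chigh and 0 in Ly6Clow monocytes. Bonferroni adjustment left 0 called higher and 0 called lower in each table, since the smallest deposited p-value, 5e-05, becomes 0.581 and 0.602. The activating median less the ITIM median was 0.83 in Ly6Chigh monocytes with the lectins coupled to the Fc receptor gamma chain alone, and -0.095 in Ly6Clow monocytes with a pseudocount of 1. By the mean of q1 and q2, 3 lectins differed 2-fold or more between subsets, all lower in Ly6Clow monocytes and 0 higher; in q2 alone 1 was higher. No paired analysis was possible because the tables hold no value per sample, and leaving out replicates was not run for the same reason. The depth is unknown, so no limit on low levels such as those of Clec5a in Ly6Clow monocytes can be given.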
